A study of Danio rerio with 3 samples.

Results

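The 73 rows described here are the genes of the zebrafish matrices whose symbol begins like that of a troponin (tnnc, tnni, tnnt), a fast myosin light chain (mylpf, mylz), a sarcomeric myosin heavy chain (myhz, myhc, smyhc), a parvalbumin (pvalb), a creatine kinase (ckm), a striated-muscle actin (actc1, acta1), a tropomyosin (tpm), a myomesin (myom), titin (ttn) or nebulin (neb). They carry 70 symbols, of which actc1a, myhz1.1 and smyhc2 stand for 2 rows each, and are 73 of 32521 features. The rule used names only, and no measured value, although it was set with earlier results of these data known. The study asked how loss of sema4ab, a semaphorin gene, changes the cells around a spinal lesion. Its scRNA-seq held 3 libraries, each from 50 larvae that were lesioned at 3 dpf and collected at 4 dpf, 1 day post lesion. The gControl library came from embryos injected with a control guide RNA, and gSema4abR1 and gSema4abR2 were technical repeats of embryos injected with haCR guides against sema4ab at the single-cell stage. Cells of such somatic mutants can differ in the mutations they carry. Larvae were pooled, and no transgene is named in the labels of the libraries. On the sort the sources differ: the series description names GFP-positive as well as viable cells, while the sample labels and the methods name viable cells only, so that the population behind the shares of cells below is not certain. The labels call the tissue spinal cord, but the methods describe trunk tissue some somites to either side of the lesion, and muscle cells were present in each library.

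In a striated muscle fibre, thick filaments of myosin slide along thin filaments of actin. Tropomyosin lies along the thin filament, and troponin moves it when troponin C binds calcium, with troponin I as the inhibitory subunit and troponin T as the one that binds tropomyosin. Titin spans the sarcomere from Z-disc to M-band, nebulin runs along the thin filament, and myomesin links thick filaments at the M-band. Parvalbumins are small proteins that take up calcium after a contraction and are abundant in fast fish muscle, and muscle creatine kinase restores ATP from phosphocreatine. Larval zebrafish keep slow fibres in a superficial layer and fast fibres beneath it, and each type uses its own set of these proteins. Because their mRNAs are so abundant in muscle, the level of the same genes in cells of other classes is also described here. The source of that level was not tested.

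After filtering there were 12247 gControl cells, 12079 cells of gSema4abR1 and 11940 of gSema4abR2, with medians of 7200.0, 6495 and 6731 UMIs per cell, where a UMI stands for 1 captured mRNA molecule. Of the kept cell barcodes, 34 to 44 occurred in both libraries of a pair. The guides were aimed at sema4ab, which had 50.0 CPM (UMIs of a gene per 1000000 UMIs) over all barcodes of gControl, 29.1 CPM in gSema4abR1 and 30.2 CPM in gSema4abR2, but counts summed per gene do not show the sequence of the targeted site, so that these values alone do not check the labels. Reads over that site were not analysed here. Because gControl is 1 pool and the gSema4ab libraries are technical repeats, no p-values are given. Intervals are exact at 95% and cover counting error only. The 73 genes were left out of the variable genes used for clustering, and none served as a marker. They still counted in the UMI totals, the filters and the doublet scores. They could also rank among the leading genes of a cluster, which the naming rule used, and did so in the fibre-like cluster.

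Skeletal muscle fibre-like cells numbered 132, 131 and 149 cells in the order gControl, gSema4abR1, gSema4abR2, which is used throughout, or 1.08%, 1.08% and 1.25% of all cells. They formed 1 cluster, in which 41 of 43 other fibre genes, such as those of the calcium pump and the calcium release channel, passed as markers. Myoblast-like cells, with 9 of 10 markers and also 14 of the 43 fibre genes, numbered 212, 193 and 208. Muscle progenitor-like cells, with 8 of 8 markers, numbered 248, 347 and 298. The 17 other named classes held 9899, 9571 and 9343 cells, and 12 clusters without a name held the remaining 1756, 1837 and 1942. Fibre-like cells also held markers of other cells, of which the 13 red blood cell genes came to 5597, 5221 and 2902 CPM and the 11 fibroblast genes to 215, 268 and 576 CPM. Of 6 heart muscle genes 4 were at 0, and the sum was 1403, 1004 and 583 CPM. The heart list included myh7. With members among the variable genes, myh7 was a leading gene of a fibre-like cluster, beside smyhc1 and tnnc1b. This sum therefore does not by itself mark heart cells. The part of RNAs of other cells in the values below was not tested.

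All 73 members had at least 1 UMI, 70 had at least 20, and 55 had their highest level in fibre-like cells. Together they made up 25.0% of the UMIs of fibre-like cells in gControl, 22.9% in gSema4abR1 and 24.3% in gSema4abR2. The summed level was 8290.1, 6606 and 6718 CPM in myoblast-like cells and 1299, 1834 and 1650 CPM in muscle progenitor-like cells, so that most of the step lay between myoblasts and fibres. In single fibre-like cells the median share of UMIs from members was 19.1%, 19.2% and 19.5%, with a highest cell of 63.3%, 62.9% and 63.8%. The largest contribution of 1 cell was 7.14% of the member UMIs of the class in gControl, 4.05% in gSema4abR1 and 4.85% in gSema4abR2. Abundance was very uneven: the 12 highest members gave 79.7%, 75.6% and 79.4% of the member UMIs of fibre-like cells, 29 members exceeded 1000 CPM, and 20 were under 10 CPM.

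**Figure D1:**
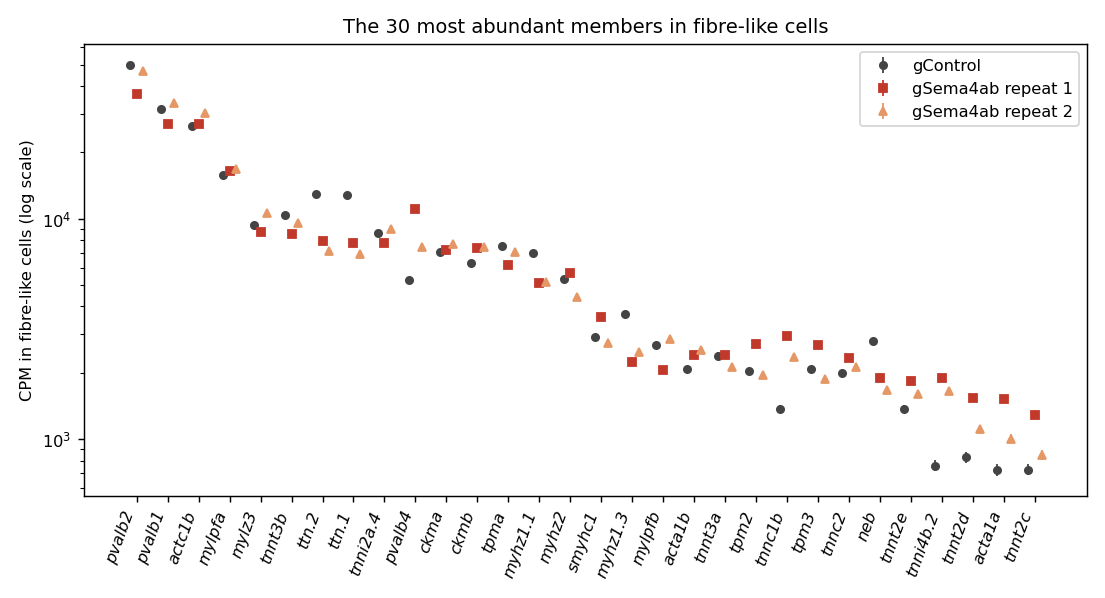
The level in CPM (log axis) of the 30 members with the highest mean in fibre-like cells, as 1 point per library with exact Poisson intervals. pvalb2 leads in every library, and the gControl point lies highest for ttn.1, ttn.2 and neb and lowest for pvalb4, tnnc1b and tnni4b.2.

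Parvalbumins were the most abundant members. pvalb2 had 49736 CPM in gControl, 36946 CPM in gSema4abR1 and 46754 CPM in gSema4abR2 in fibre-like cells. pvalb1 had 31333 CPM in gControl, 26890.2 CPM in gSema4abR1 and 33556 CPM in gSema4abR2, and ranked behind actc1b in gSema4abR1. The next in order, pvalb4, was lowest in gControl, with 5263, 11054 and 7447 CPM in gControl, gSema4abR1 and gSema4abR2. pvalb7 and pvalb3 followed with 238, 375 and 322 CPM and 138, 111 and 34.1 CPM, while pvalb5, pvalb6, pvalb8 and pvalb9 had at most 17 UMIs each in any library. Abundant parvalbumins therefore came from both groups of neighbouring genes that the RefSeq annotation of another assembly (GRCz12tu) lists, pvalb9, pvalb3 and pvalb2 in one and pvalb8, pvalb4, pvalb1 and pvalb5 in the other, and each group also held members of a few UMIs or none.

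Among the filament proteins, actc1b was by far the most abundant actin. It had 26443 CPM in gControl, 26944 CPM in gSema4abR1 and 30178 CPM in gSema4abR2, against 2074, 2421 and 2535 CPM for acta1b and 725, 1516 and 1005 CPM for acta1a. Of the 3 fast light chains, mylpfa, the regulatory chain, had 15795 CPM in gControl, 16430.3 CPM in gSema4abR1 and 16790.1 CPM in gSema4abR2. mylz3, an alkali light chain, had 9406, 8682 and 10578 CPM, and mylpfb 2669, 2053 and 2850.0 CPM. By UMIs, which are counted at the 3′ end and so are not divided by transcript length, the light chains together stood at 27869.8, 27165 and 30218 CPM, above the heavy chains they bind. Of these myhz1.1 (ENSDARG00000067990) had 6961 CPM in gControl, 5125 CPM in gSema4abR1 and 5155 CPM in gSema4abR2. myhz2, also a fast chain, had 5355, 5667 and 4406 CPM, and smyhc1, the leading slow chain, 2918, 3579.7 and 2744 CPM. The 10 heavy-chain rows summed to 20176, 18092 and 15915 CPM. Reads of near-identical neighbours (myhz1.1 to myhz1.3, smyhc1 to smyhc3) can be split or dropped in counting, so that values of single copies are uncertain, as is the order between genes of unlike 3′ ends.

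On the thin filament, tnnt3b, a fast troponin T, had 10362 CPM in gControl, 8489 CPM in gSema4abR1 and 9567 CPM in gSema4abR2. The leading troponin I, tnni2a.4, was the last of 4 neighbouring copies and had 8645 CPM in gControl, 7768 CPM in gSema4abR1 and 9006 CPM in gSema4abR2, whereas tnni2a.1, tnni2a.2 and tnni2a.3 had at most 6 UMIs each in any library. The leading tropomyosin was tpma, with 7542, 6182 and 7090.3 CPM. Troponin C was split between tnnc1b, the slow form, with 1376, 2953 and 2351 CPM, and tnnc2, the fast form, with 2001, 2329 and 2123 CPM. The creatine kinases ckma and ckmb were close to each other, with 7058, 7225 and 7655 CPM and 6319, 7379 and 7407 CPM, and the mitochondrial ckmt2b was lower with 207, 239 and 199 CPM.

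Titin, nebulin and the leading myomesin were highest in gControl, an order shared by other members such as tnnt3b and tpma. ttn.1 had 12819 CPM in gControl, 7727 CPM in gSema4abR1 and 6901 CPM in gSema4abR2. The neighbouring gene ttn.2 had 12961 CPM in gControl, 7945 CPM in gSema4abR1 and 7114 CPM in gSema4abR2. Nebulin (neb) had 2802 CPM in gControl, 1899 CPM in gSema4abR1 and 1675 CPM in gSema4abR2, and the leading myomesin, myom1a, 674, 462 and 443 CPM. In fibre-like cells 48.9% of all 8869 genes with at least 20 UMIs were lower in both repeats. This order by itself therefore does not single out these 4 genes.

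Fibre-like cells separated sharply into slow and fast cells by their myosin heavy chains. Of the cells with at least 10 heavy-chain UMIs (105, 109 and 116 cells), 80, 74 and 84 had less than 10% of these UMIs from the smyhc genes, 23, 34 and 30 had over 90%, and only 2, 1 and 2 lay between. Slow cells were 21.9% (interval 14.4% to 31.0%) of such cells in gControl, 31.2% (22.7% to 40.8%) in gSema4abR1 and 25.9% (18.2% to 34.8%) in gSema4abR2, and these intervals overlapped. The groups were cut from the data, so what follows describes them and is not a test. Outside the heavy chains, 15 of 47 members with at least 20 UMIs in these cells were at least 10-fold higher in slow cells in every library (1.09% of all 8621 genes), and 10 were at least 10-fold higher in fast cells (0.499% of all genes).

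**Figure D2:**
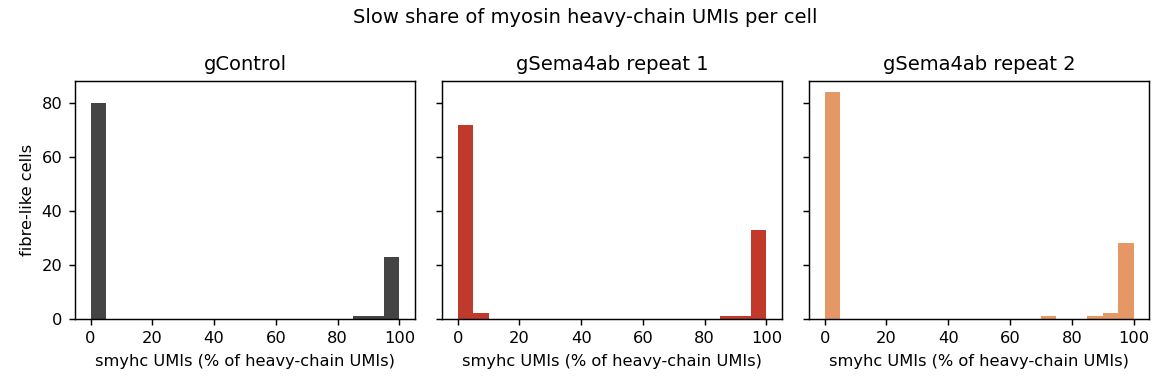
The number of fibre-like cells by the share of myosin heavy-chain UMIs that came from smyhc genes (%), in bins of 5%, for each library. Nearly all cells lie below 10% or above 90%.

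The split ran through most roles in the sarcomere. In slow cells tnnc1b had 5643, 8285 and 7723 CPM, against 22.9, 127 and 53.3 CPM in fast cells. The troponin I gene tnni4b.2 had 3057, 5385 and 5470.0 CPM in slow cells and 30.2, 88.9 and 3.67 CPM in fast cells. The slow set also held tnnt1, tnnt2b, tnnt2d and tnnt2e among troponin T genes, tnni1b, tnni1c, tnni1d, tnni4a and tnni4b.1 among troponin I genes, the tropomyosins tpm2 and tpm3, the actin actc1c and pvalb7. Of these, tnni1b and tnni4b.1 rested on few cells. tnni1b had UMIs in 5, 11 and 6 fibre-like cells, and tnni4b.1 in 1.52%, 3.82% and 3.36% of fibre-like cells. In fast cells pvalb2 had 66729, 54886 and 64062 CPM, against 2031, 4734 and 4442 CPM in slow cells. The myomesin gene myom2a had 830, 652 and 723 CPM in fast cells and 0 UMIs in slow cells of any library. The fast set further held acta1b, mylpfa, mylpfb, mylz3, tnni2a.4, tnni2b.2, tnnt3b and tpma. Of the parvalbumins, pvalb4 went the other way from pvalb2, with 16681, 24990 and 20142 CPM in slow and 1756, 4016 and 2098 CPM in fast cells, below 10-fold in each library. Titin was present in both, with ttn.1 at 9210, 5513 and 4377 CPM in slow and 13862, 9090 and 8191 CPM in fast cells. Members gave 12.4%, 13.9% and 11.9% of the UMIs of slow cells and 29.5%, 28.2% and 29.2% of those of fast cells.

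In fibre-like cells, the summed members differed little between conditions. The log2 ratio of the mean of both gSema4ab libraries to gControl was -0.08 (interval -0.09 to -0.07), with -0.12 in gSema4abR1 and -0.04 in gSema4abR2, and its direction turned under some settings: it was 0.11 with TMM scaling, 0.05 as a mean over cells, 0.08 with large muscle barcodes added and 0.0017 without doublet removal. The median log2 ratio of all 8869 genes with at least 20 UMIs was itself -0.17 in these cells, and -0.19 in the 17 other classes together. Of 55 members with at least 20 UMIs in these cells, 2 were at least 2-fold higher in both repeats (the rule for a call here), where 2.4% of all genes were, and 2 were at least 2-fold lower in both, where 4.6% were. Without regard to size, 20 of the 55 were higher in both repeats (27.6% of all genes) and 19 lower in both (48.9%), and their median log2 ratio was 0.00079. Of 42 other fibre genes tested, 0 were called in either direction, 7 were higher and 30 lower in both repeats, and their median was -0.27. With a floor of 50 CPM as well, 1 of 46 members was called higher (0.757% of 1718 genes) and 1 lower (1.22%). In place of 4 calls there was 1 without doublet removal and 1 with means over cells, and there were 9 without the minimum of 20 UMIs. The share of all genes under these changed settings is not given here, so nothing about the members is read from these counts.

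tnni4b.2, a troponin I of slow cells, was the more abundant of the members called higher, with 757 CPM in gControl, 1900.3 CPM in gSema4abR1 and 1656 CPM in gSema4abR2. Its log2 ratio was 1.23 (interval 1.14 to 1.33), and over the alternatives it ranged from 1.03 to 1.42. It was found in 32, 53 and 40 cells, and slow cells were likewise fewer in gControl (23, 34 and 30), whose part in the result was not tested. Within slow cells its level was still lowest in gControl, as given above. There it was under 2-fold higher in each repeat, short of the rule for a call. tpm4a, the other, rested on 9, 26 and 21 UMIs and turned to -0.58 without doublet removal. Of the members called lower, myhc4, a heavy chain next to myhz2, had 346 CPM in gControl, 136 CPM in gSema4abR1 and 164 CPM in gSema4abR2. Its log2 ratio was -1.21 (interval -1.39 to -1.03). tnni1b had 121, 50 and 52 UMIs, of which 1 cell held 69.4% in gControl. tnnc1b, acta1a and pvalb4, each higher in slow than in fast cells, had log2 ratios of 0.95 (interval 0.88 to 1.02), 0.80 (interval 0.70 to 0.90) and 0.81 (interval 0.78 to 0.85) and were higher in both repeats, but under 2-fold in gSema4abR2. For myhz1.2, 1 cell held 68.0% of the UMIs in gSema4abR1 and 48.4% in gSema4abR2.

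Of the roles, titin had the lowest log2 ratio in fibre-like cells, -0.80, before nebulin with -0.65, the myomesins with -0.54 and the heavy chains with -0.25. ttn.1 had a log2 ratio of -0.81 (interval -0.84 to -0.78), with -0.73 in gSema4abR1 and -0.89 in gSema4abR2, and ttn.2 of -0.78 (interval -0.81 to -0.76). Both were lower in slow and in fast cells, and the ratio of ttn.1 ranged from -0.97 to -0.62 over the alternatives. The median over cells moved the same way, with 9701, 5428 and 4909 CPM for ttn.1. The interval for neb was -0.71 to -0.59, and the 3 myomesins together had 1828, 1241 and 1281 CPM. No titin, nebulin or myomesin gene was 2-fold lower in both repeats in these cells. Troponin C as a role was higher, with 3377, 5281 and 4473 CPM, as were the creatine kinases, with 13377, 14604 and 15062 CPM.

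Myoblast-like cells, marked by myog and mymk, genes of muscle differentiation and cell fusion, ordered the members in another way than fibres. actc1b was first, with 1701 CPM in gControl, 1816 CPM in gSema4abR1 and 1836 CPM in gSema4abR2, and differed little between libraries. Titin came next: ttn.2 had 1409 CPM in gControl, 699 CPM in gSema4abR1 and 837 CPM in gSema4abR2, and ttn.1 1009.7, 450.2 and 486 CPM. pvalb2, first in fibres, had 784, 744 and 646 CPM. The summed members had a log2 ratio of -0.32 (interval -0.34 to -0.29), with both repeats below gControl. The median cell went the other way, with 0.229%, 0.246% and 0.252% of UMIs from members, and 10 cells held 46.8%, 46.6% and 40.1% of the member UMIs of the class, so that the sum is that of few cells. Of 46 members with at least 20 UMIs, 0 were at least 2-fold higher in both repeats (0.783% of all 11871 genes) and 8 were at least 2-fold lower (3.16%). These were myhc4, myhz1.2, myhz2, smyhc2, myom2a, tnni4a, tpm2 and ttn.1. For several of them few cells carried the value: myhz2 had 145 CPM in gControl, 24.1 CPM in gSema4abR1 and 24.7 CPM in gSema4abR2, but 1 cell held 54.7% of its UMIs in gControl, and the largest cell of gControl held 89.5% for myhz1.2 and 93.8% for tnni4a. ttn.1 was the exception, with UMIs in 123, 83 and 114 cells and at most 10.3% of them in 1 cell. In muscle progenitor-like cells ttn.2 likewise had 169, 89.9 and 109.6 CPM. Titin as a role thus had log2 ratios of -0.80, -0.97 and -0.77 in fibre-, myoblast- and progenitor-like cells, against -0.09 in the 17 other classes together. The other members also differed between these places. The 55 members highest in fibre-like cells summed to a log2 ratio of -0.08 in fibre-like cells and 0.70 in the 17 classes. Titin lay below that sum in both, so a lower titin relative to the members was not confined to muscle.

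Muscle progenitor-like cells, marked by pax7a and myf5, had a summed level near that of the other classes. Their first member was the tropomyosin tpm4a, with 351 CPM in gControl, 335 CPM in gSema4abR1 and 312 CPM in gSema4abR2. Its level was higher in smooth muscle-, endothelium- and fibroblast-like cells, as given below. pvalb2 followed with 88.6, 242 and 182 CPM and pvalb1 with 82.0, 215 and 177 CPM. Of 38 members with at least 20 UMIs, 12 were at least 2-fold higher in both repeats, where 1.92% of all genes were, and 0 were at least 2-fold lower, where 3.02% were. The 12 were myhz1.2, myhz2, mylpfa, mylpfb, mylz3, pvalb1, pvalb2, tnnc2, tnni2a.4, tnnt2c, tnnt3a and tpma. All of these but myhz1.2, tnnt2c and tpma were also at least 2-fold higher in both repeats in the classes outside muscle, as given below. The difference is therefore not particular to progenitor-like cells.

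Outside muscle, member UMIs were found in every class. Muscle classes held 74.6%, 70.4% and 68.8% of the member UMIs of kept cells. The 17 other named classes held 20.8%, 23.5% and 23.8%, and unnamed clusters 4.64%, 6.14% and 7.36%. The order of the libraries in these shares depended on the upper limit of UMIs per barcode. With large barcodes that held fibre markers added, the share outside muscle, unnamed clusters included, was 22.6%, 19.5% and 26.0%. There gSema4abR1 stood below gControl, and gSema4abR2 above it. In the 17 classes together the members summed to 1263, 1684 and 1825 CPM, and to 820.0, 1255 and 1414 CPM when restricted to the 55 members highest in fibre-like cells. The summed level of all members in fibre-like cells was 192, 146 and 127 times that of the median class. By gene, 50 of 55 members with at least 20 UMIs in fibre-like cells were at least 10-fold higher there than in the 17 classes in every library (5.43% of all 8869 genes), and 42 were at least 100-fold higher (2.56%). The 5 that were not 10-fold higher were pvalb8, tnni4b.1, tpm1, tpm3 and tpm4a. The floor of 20 UMIs was set in fibre-like cells, for members and for all genes alike. It left out members with few UMIs there, such as pvalb6 and ckmt1, so these counts are not shares of all 73 members. A UMI of pvalb2 was found in 48.1%, 71.7% and 70.6% of fibroblast-like cells, with median depths of 7171, 6463 and 6762 UMIs, and in 97.7%, 98.5% and 98.0% of fibre-like cells, with median depths of 7585, 8509 and 5967 UMIs. A UMI of this gene therefore did not mark a muscle cell. By the share of UMIs from members the lowest fibre-like cell had 5.45%, 4.44% and 1.93% and the highest cell of the 17 classes 16.9%, 5.15% and 6.77%, so that the extremes overlapped, while the medians were 19.1%, 19.2% and 19.5% against 0.118%, 0.177% and 0.183%.

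**Figure D3:**
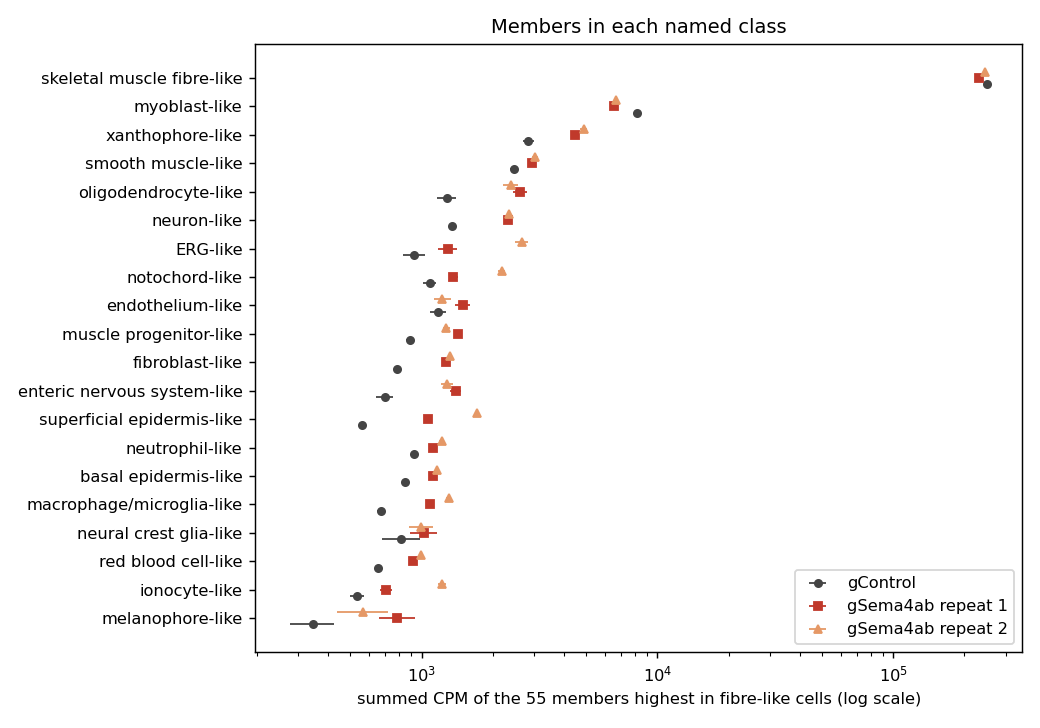
Summed CPM (log axis) of the 55 members highest in fibre-like cells, by named class and library, with exact Poisson intervals. All classes other than fibre- and myoblast-like cells lie between 346 and 4875 CPM, and in each of them gControl is the lowest library.

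The level outside muscle differed between libraries. For the 55 members highest in fibre-like cells, all 17 other classes were higher in both repeats than in gControl, with log2 ratios from 0.21 in endothelium-like cells to 1.31 in superficial epidermis-like cells and a median of 0.72. Over the 17 classes together the log2 ratio was 0.70 (interval 0.69 to 0.71), with 0.61 in gSema4abR1 and 0.79 in gSema4abR2, and over all 73 members it was 0.47. With all 73 members, 15 of the 17 classes were higher in both repeats and 0 lower in both, with a median of 0.50. The exceptions were ionocyte- and notochord-like cells, at -0.07 and -0.008 in gSema4abR1. The lowest ratio was then 0.03, in smooth muscle-like cells. Superficial epidermis-like cells had 562, 1064 and 1715 CPM of these 55 members, and ependymo-radial glia (ERG)-like cells had 931, 1294 and 2656 CPM. The ERG-like cells were only 55, 50 and 74 in number, with median depths of 5418, 5474 and 2753 UMIs. Of their UMIs of these members, 10 cells held 42.0%, 38.9% and 32.0%. Xanthophore-like cells, which had the highest level outside the muscle lineage, held 2838, 4456 and 4875 CPM with a median of only 1111, 1084 and 1138 UMIs per cell. In these cells 1 cell of gControl held 15.9% of the member UMIs. Superficial epidermis-like cells joined 2 clusters that the libraries filled differently, 1 with 845, 396 and 369 cells and 1 with 416, 505 and 535, and the median depth of the class was 12429, 7822 and 7551 UMIs. In the first the 55 members had 513, 925 and 1029.6 CPM, and in the other 772, 1252 and 2605 CPM, where 10 cells held 7.22%, 5.63% and 44.7% of these UMIs. The median over cells of the class was 0.0524%, 0.114% and 0.128%. Of 32 clusters in the 17 classes, 31 were higher in both repeats and 0 lower in both, with log2 ratios from 0.12 to 1.32 and a median of 0.76. The exception was 1 of the notochord-like clusters. Thinned to 2000 UMIs per cell, pvalb2 was found in 20.4%, 35.6% and 36.3% of cells of the median class, against 49.1%, 71.7% and 73.0% before thinning, and 1442, 1688 and 1733 shallower cells were left out.

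By gene, 18 of 67 members with at least 20 UMIs in the 17 classes were at least 2-fold higher in both repeats, where 1.12% of all 24296 genes were, and 0 were at least 2-fold lower, where 5.63% were. They included the most abundant genes of fast cells. pvalb2 had 97.9 CPM in gControl, 203 CPM in gSema4abR1 and 222 CPM in gSema4abR2. actc1b had 55.7, 122 and 145 CPM, and mylpfa 24.0, 57.8 and 68.1 CPM. The log2 ratio was 1.12 (interval 1.08 to 1.15) for pvalb2, 1.26 for actc1b with 1.13 in gSema4abR1 and 1.38 in gSema4abR2, and 1.39 (interval 1.33 to 1.46) for mylpfa, whereas in fibre-like cells these were -0.25, 0.11 and 0.07. Without regard to size, 45 members were higher in both repeats (27.3% of all genes) and 14 lower in both (60.2%). The other members at least 2-fold higher were acta1b, ckma, ckmb, ckmt2b, myhz2, mylpfb, mylz3, pvalb1, smyhc1, smyhc2, tnnc2, tnni2a.1, tnni2a.3, tnni2a.4 and tnnt3a. Of 43 other fibre genes, 5 were called higher (atp2a1, cacng1a, casq1b, cavin4a and cavin4b) and 2 lower (cacna1sa and lmod3). Titin did not take part: ttn.1 had 15.9, 12.5 and 16.0 CPM. The tropomyosins, which lead outside muscle, were also level, with a sum of 709, 691 and 688 CPM.

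**Figure D4:**
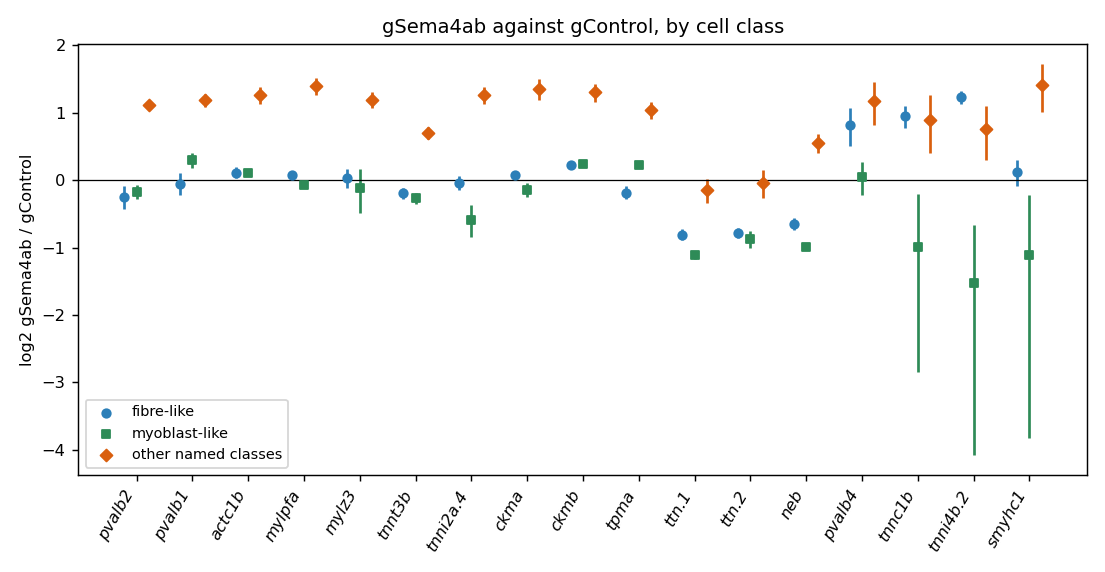
The log2 ratio of gSema4ab to gControl for 17 members in fibre-like cells, myoblast-like cells and the 17 other named classes together. Points are the ratio of the mean of both repeats and lines run between the repeats, with points under 20 UMIs left out. Members such as pvalb2, actc1b and mylpfa lie above 1 outside muscle and between -0.25 and 0.11 in fibre-like cells, and ttn.1 and ttn.2 lie below 0 in both muscle classes.

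The filters on cells took unequal parts of these UMIs from the libraries. Over all barcodes members gave 0.516% of the UMIs of gControl, 0.842% of gSema4abR1 and 0.658% of gSema4abR2. Kept cells held 69.7%, 48.9% and 67.3% of the member UMIs. Barcodes with 50000 UMIs or more, which the filters of the study remove, were 90, 60 and 76 in number and held 9.60%, 29.6% and 15.1%. Among them 2, 7 and 3 barcodes had over 20% of their UMIs from members. Barcodes removed as doublets held a further 15.5%, 19.1% and 10.1%. Members were thus a larger part of the UMIs of the deposited barcodes in the gSema4ab libraries, before the filters used here. Outside muscle after these filters gControl was also lowest, but the repeats stood in the other order. There the members had 1684 CPM in gSema4abR1 and 1825 CPM in gSema4abR2. The part of the large barcodes in the level outside muscle was not tested.

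Within most classes outside muscle the members other than tropomyosins kept an order like that of fibres. With tropomyosins set aside, pvalb2, pvalb1 and actc1b were the first 3 of all members in 14 of 17 classes, and pvalb2 was first in 13. In the others pvalb8 (ionocyte-like), pvalb6 (neuron-like) or tnnt3b (neutrophil-like) was among the first 3. With tropomyosins kept, the order was less alike. Among the 55 members highest in fibre-like cells, pvalb2, pvalb1 and actc1b were then the first 3 in 6 of 17 classes. pvalb2 was first in 7, and tpm3 or tpm2 led most of the rest. Across the 26, 31 and 29 members over 1000 CPM in fibre-like cells, Spearman's rho between the level in fibre-like cells and in the 17 classes together was 0.63, 0.77 and 0.76. For barcodes with 50000 UMIs or more it was 0.88, 0.82 and 0.93. These are descriptions across genes that share libraries and depth. The ratio to the fibre level was nevertheless not the same for each gene. The 55 members together stood at 0.328%, 0.547% and 0.581% of their fibre level, pvalb2 at 0.197%, 0.549% and 0.474%, mylpfb at 0.415%, 1.14% and 0.915%, and ttn.1 at 0.124%, 0.162% and 0.232%. Titin was thus below the ratio of the sum in every library, and mylpfb above it.

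**Figure D5:**
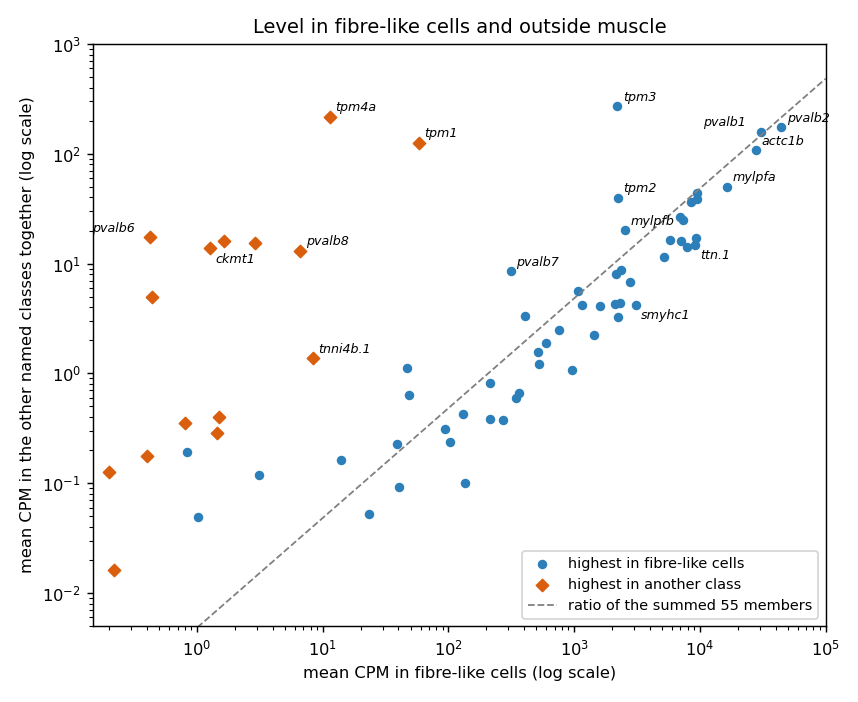
Mean CPM over the libraries in the 17 other named classes together against mean CPM in fibre-like cells (log axes), for the 69 members with UMIs on both axes. The dashed line is the ratio of the summed 55 members highest in fibre-like cells; most abundant members lie near it, and tpm4a, tpm1, tpm3, pvalb6, pvalb8 and ckmt1 lie far above.

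Of 55 members with at least 20 UMIs in some other class, 14 were there at least 10 times above the level that the ratio of the sum gives, with 3 UMIs put in for fewer in fibre-like cells. This criterion by itself is no mark of a gene, since 98.5% of all 22418 genes met it. Tropomyosins led: smooth muscle-like cells had 2892 CPM in gControl, 2658 CPM in gSema4abR1 and 2285 CPM in gSema4abR2 of tpm1 and 1462, 1149.7 and 897 CPM of tpm2. tpm4a had 1499, 1546 and 1497 CPM there, 1059.8, 919 and 1041 CPM in endothelium-like and 734, 673 and 646 CPM in fibroblast-like cells. tpm3 had 571, 580.2 and 576 CPM in basal epidermis-like and 541, 533 and 529 CPM in neutrophil-like cells. tpm4b was highest in smooth muscle-like cells with 214, 204 and 239 CPM. Tropomyosins also stabilize actin filaments of non-muscle cells. tpm2 was lower in both repeats in smooth muscle-like cells, with a log2 ratio of -0.51 (interval -0.60 to -0.43).

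Among the parvalbumins, pvalb6 was highest in neuron-like cells, with 311 CPM in gControl, 171 CPM in gSema4abR1 and 205 CPM in gSema4abR2 in neuron-like cells and at most 1 UMI in fibre-like cells of any library. It was found in 24.5%, 18.4% and 21.3% of neuron-like cells, against 0.875%, 0.633% and 0.665% of fibroblast-like cells, although neuron-like cells had median depths of only 2760.0, 2568 and 2592 UMIs. pvalb7 also stood out in neuron-like cells, with 22.2, 63.7 and 48.5 CPM. pvalb8 was highest among named classes in ionocyte-like cells, with 404 CPM in gControl, 130.2 CPM in gSema4abR1 and 78.0 CPM in gSema4abR2. It was lower in both repeats there. Unnamed clusters held more of it. A cluster with muc5.2 among its leading genes had 1635, 1270 and 772 CPM from 30, 26 and 23 cells. Another, with stm and eya1 among them, had 417, 676 and 261 CPM from 21, 24 and 29 cells. A further unnamed cluster, led by stc1l, agr2 and cnfn, held far more in the gSema4ab libraries, with 11.1, 14478 and 14757 CPM from 1, 3 and 5 cells. Because 1 cell held 99.9% of these UMIs in gSema4abR1, no comparison is drawn from it.

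Other members with a place outside muscle had smaller levels. ckmt1, a mitochondrial creatine kinase, had 143, 148 and 137 CPM in neuron-like and 165, 161 and 158 CPM in oligodendrocyte-like cells, and at most 3 UMIs in fibre-like cells. In ionocyte-like cells it had 57.8, 85.5 and 90.2 CPM. tnni4b.1 had 12.9, 21.5 and 20.8 CPM in macrophage/microglia-like cells, and tnni1b 6.92, 5.70 and 4.25 CPM in red blood cell-like cells. nebl, a relative of nebulin, had 1.75, 1.41 and 1.49 CPM in neuron-like cells. tpmt.1 and tpmt.2 match the prefix of the tropomyosins but are named for thiopurine methyltransferase, an enzyme, and tnni3k is named for a kinase. tpmt.1 had 25.2, 31.0 and 26.9 CPM and tpmt.2 15.8, 9.61 and 9.26 CPM in neutrophil-like cells, and tnni3k had 5, 1 and 1 UMIs in fibre-like cells. None of these 3 was highest in fibre-like cells.

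Neutrophil- and notochord-like cells departed from the common order without passing that limit. In neutrophil-like cells the troponin T gene tnnt3b had 90.1 CPM in gControl, 75.7 CPM in gSema4abR1 and 82.6 CPM in gSema4abR2, while pvalb2 had 48.7, 111 and 132 CPM. Thinned to 2000 UMIs, tnnt3b was found in 16.3%, 17.0% and 16.8% of neutrophil-like cells, against 6.12%, 9.84% and 11.6% in the median class. Another class was higher in each library after thinning, with 16.7%, 29.6% and 18.9% in the highest class. Before thinning tnnt3b was found in 67.0%, 57.2% and 53.1% of neutrophil-like cells. Median depths of neutrophil-like cells were 14442, 12138 and 9851 UMIs. By CPM tnnt3b was highest in gControl there, and pvalb2 lowest. In notochord-like cells acta1a had 199, 11.7 and 21.3 CPM, of which 1 cell held 97.8% in gControl.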

How the data were processed

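Each deposited matrix holds unnormalized counts of UMIs for every gene and barcode, made by the authors with Cell Ranger 7.1.0 from 10x Genomics 3′ libraries, the genome GRCz11 and the annotation of Ensembl. The matrices held 14398, 14384 and 14163 barcodes with 152455137, 140055125 and 139165621 UMIs.

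Barcodes were kept with at least 200 genes, 500 to 50000 UMIs, under 20% mitochondrial UMIs and at most 20 UMIs per gene. Scrublet (scanpy 1.11.5) scored doublets, and the highest scores were removed at 0.8% of a library per 1000 barcodes, because its own threshold called 398, 0 and 0. The study also removed cells with mixed markers at thresholds that are not given in the sources used here, so this was an alternative only. Seurat 5.3.0 (R 4.3.3) clustered the cells (CCA integration, 30 dimensions, resolution 1, 2000 variable genes without the members). A class name needed 3 markers, each in at least 10% of cells and 3-fold above other cells. Fractions of markers, ties and leading genes were settled after a first clustering had been seen. Names end in "-like" because they rest on markers alone.

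UMIs were summed per class and library and scaled to CPM, with exact Poisson intervals. Shares have exact binomial (Clopper-Pearson) intervals. A log2 ratio sets the mean CPM of both repeats over gControl with 0.5 UMIs added, with an exact conditional binomial interval. Calls need a 2-fold difference of the same direction in both repeats and at least 20 UMIs. The interval calculation was tested on simulated data. PCR duplicates are collapsed by UMI, but intervals and floors still cover counting error only. The members and lists were chosen with earlier results of these data known. Named were the 12 highest members in fibre-like cells, the 10 highest in other classes, the highest of each role, those called in fibre-like cells, those at least 10 times above the summed ratio and those whose role is not contraction. Other members were named after their values had been seen: the parvalbumins at or near 0, those of the slow and fast sets, those called in other muscle classes, myhz1.2, acta1a and tnnt3b in neutrophils. Values by cluster were added after those by class had been seen. Gene neighbours are from RefSeq (GRCz12tu); 72 of 73 IDs were matched. Other computations used Python 3.11.15, numpy 2.4.6, scipy 1.17.1, pandas 2.3.3 and edgeR 4.0.16 (TMM only).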

Additional observations from a re-analysis of the deposited data

Results flagged for a closer look

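The summed members moved in unlike directions between places. The log2 ratio of gSema4ab to gControl was -0.080 in fibre-like cells and -0.32 in myoblast-like cells, with both repeats below gControl, and 0.47 in the 17 other named classes, higher in both repeats. In myoblast-like cells the median share per cell was higher in both repeats (0.229%, 0.246% and 0.252%), and 10 cells held 40.1% to 46.8% of the member UMIs. The difference between these places was not tested, since each condition is 1 pool of larvae, and the ratio in fibre-like cells turns above 0 under 4 of 14 alternatives.

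Barcodes with 50000 UMIs or more were left out of the main values for cell classes, and those with fibre markers were added as an alternative. Over all barcodes of that size members gave 8.45% of the UMIs in gSema4abR1 and 2.96% in gSema4abR2, above the 1.26% in gControl. They rest on few barcodes, since 2 in gControl, 7 in gSema4abR1 and 3 in gSema4abR2 had over 20% of their UMIs from members.

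In 1 unnamed cluster of 9, 17 and 53 cells, pvalb8 stood at 14478 CPM in gSema4abR1 and 14757 CPM in gSema4abR2, above the 11.1 CPM of gControl. These UMIs came from 1, 3 and 5 cells, and the largest cell held 99.9% in gSema4abR1 and 38.6% in gSema4abR2.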

How the results depend on the processing

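No paired analysis was possible because gControl is 1 library and the numbers of the gSema4ab libraries name technical repeats. Without doublet removal, the mean summed level in fibre-like cells was 220639 CPM in place of 240899, the summed level of the median other class, as a mean over libraries, 1891 in place of 1597 CPM, the share of member UMIs outside muscle 30.8% in place of 28.7%, the log2 ratio 0.0017 in fibre-like cells in place of -0.08 and 0.61 in other classes in place of 0.47, and 1 member in place of 4 was called in fibre-like cells, with tpm4a at -0.58. The fibre level was 219388 CPM at resolution 2, 221246 with members among the variable genes and 219103 without integration. The share outside muscle was 25.4% without cells of mixed markers and 26.8% at resolution 0.5. TMM factors gave log2 ratios of 0.11 in fibre-like cells and 0.67 in other classes, and means over cells 0.051 and 0.65, with 1 member called in fibre-like cells. For the median other class thinning gave 1865 CPM, and the median over cells under 0.5% 1265 CPM. Without the minimum of 20 UMIs 9 members were called in fibre-like cells. Leaving out either repeat gave 11 (range 11 to 11), since 1 repeat alone has then to pass. Looser rules can pass more of all genes too. Their share under each changed rule is not given here, so these counts of calls say nothing about the members. Chosen after seeing the data, members highest in fibre-like cells gave 1141 CPM in the median other class, a log2 ratio of 0.70 over these classes and 22.1% outside muscle, and adding large barcodes with fibre markers gave 282697 CPM, 0.083 and 22.7%. With these large barcodes the share outside muscle was 22.6%, 19.5% and 26.0% by library, so that gSema4abR1 then stood below gControl. The log2 ratio in other classes stayed above 0 under 13 of 13 alternatives (0.42 to 0.70). Leaving out gControl was not possible. Where a value moved, the cause was not tested. With 131 to 149 fibre-like cells a library, single cells decide the values of low members.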
